A study of Mus musculus with 4 samples.

Results

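The genes described here encode the proteins and lipid-synthesizing enzymes of central nervous system myelin. They were chosen by name, as the rows of the count matrices whose symbol was Mbp, Mog, Mag, Mobp, Cnp, Mal, Cldn11, Ugt8a or Fa2h, and all 9 were found once among the 31053 genes of each matrix. The counts came from snRNA-Seq, the sequencing of RNA from single nuclei, in brains of 2-month-old female C57/BL6 mice. The groups were wild-type mice (WT, 2 libraries) and mice with 1 inactive copy of the colony-stimulating factor 1 receptor gene in every cell (Csf1r+/-, labelled HET, 2 libraries), with no treatment in either group. Csf1r encodes a receptor that microglia need to survive, and mutations of the human gene cause an adult-onset disease of brain white matter, so the genotype contrast asks how loss of 1 copy bears on gene expression in brain cells. The study's remaining mouse of each genotype was not used here. Nuclei were prepared from mice perfused with saline, without detergent, and myelin debris was taken out of the suspension with magnetic beads. Each library is from 1 mouse, and the libraries are called WT1, WT2, HET1 and HET2.

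Myelin is the multilayered membrane that oligodendrocytes wrap around axons and that lets impulses travel fast. It forms as oligodendrocyte precursors, which carry the receptor Pdgfra, leave the cell cycle, pass through a short-lived newly formed stage marked by Enpp6 and Bcas1, and then turn on the structural genes of the sheath together with the enzymes of its lipids. The transcription factors Sox10 and Myrf drive these genes, and myelin is unusually rich in galactosylceramide and sulfatide, many of whose molecules carry hydroxylated fatty acids.

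The 6 membrane and adhesion proteins of the group differ in where they sit. Mbp encodes myelin basic protein, which holds the cytoplasmic faces of the membrane together. Mobp (chromosome 9, 120149707 to 120181484, plus strand) encodes a further small basic protein of compact myelin. Mog (chromosome 17, 37010743 to 37023398, minus strand) encodes an immunoglobulin-like protein on the outermost layer. Mag (chromosome 7, 30899176 to 30914873, minus strand) encodes a sialic-acid-binding adhesion protein of the layer that faces the axon. Cldn11 (chromosome 3, 31149920 to 31164324, plus strand) encodes the claudin of the tight junctions between layers. Mal (chromosome 2, 127633226 to 127656695, minus strand) encodes a proteolipid of membrane rafts that takes part in apical sorting in epithelia as well. The 3 enzymes are Cnp (chromosome 11, 100574904 to 100591729, plus strand), a cyclic nucleotide phosphodiesterase of the cytoplasmic channels of the sheath, Ugt8a (chromosome 3, 125865271 to 125938619, minus strand), which joins galactose to ceramide, and Fa2h (chromosome 8, 111345135 to 111393824, minus strand), which hydroxylates the fatty acids of sphingolipids. Positions are gene bodies on GRCm38 from GENCODE release M21, whose identifiers matched those of all 9 rows.

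RefSeq promoter windows were found for 7 of the 9 genes, and not for Mbp and Fa2h. The windows below hold up to 250 bases upstream of the annotated start on GRCm38.p6, 5′ to 3′ on the strand of the gene. Mog, Mag and Mobp, which are shown, were at 0 to 4 UMIs in precursors that carried Pdgfra and were high in oligodendrocytes. Cldn11, at 2 UMIs in the same precursors, had that pattern too, but its window is not shown. The Mog, Mag and Mobp windows each held a SOX or MYRF match, and the Cldn11 window held none. The windows shown are therefore not representative of the genes with that pattern. Mal is shown because its level was as high in vascular nuclei. Capitals mark the letters ACAAAG, the core of SOX sites, and CTGGCAC or CTGGTAC, the sequence bound by MYRF, each on either strand. The E-box CAGCTG was searched as well and was in none of the windows of the 7 genes.
Mog (chr17:37023399-37023648, minus strand): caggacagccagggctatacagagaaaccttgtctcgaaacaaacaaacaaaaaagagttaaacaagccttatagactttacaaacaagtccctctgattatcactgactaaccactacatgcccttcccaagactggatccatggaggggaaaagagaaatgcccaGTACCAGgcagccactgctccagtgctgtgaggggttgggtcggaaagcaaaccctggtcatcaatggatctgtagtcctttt
Mag (chr7:30914874-30915113, minus strand): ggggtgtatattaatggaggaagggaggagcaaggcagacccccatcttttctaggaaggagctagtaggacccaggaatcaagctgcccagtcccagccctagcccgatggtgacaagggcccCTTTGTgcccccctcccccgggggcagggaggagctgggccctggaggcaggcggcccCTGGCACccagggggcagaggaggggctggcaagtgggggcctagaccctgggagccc
Mobp (chr9:120149492-120149706, plus strand): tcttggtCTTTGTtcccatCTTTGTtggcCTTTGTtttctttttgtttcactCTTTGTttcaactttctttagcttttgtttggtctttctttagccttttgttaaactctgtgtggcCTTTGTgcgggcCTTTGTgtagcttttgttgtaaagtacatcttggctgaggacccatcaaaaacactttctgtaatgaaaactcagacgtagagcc
Mal (chr2:127656696-127656945, minus strand): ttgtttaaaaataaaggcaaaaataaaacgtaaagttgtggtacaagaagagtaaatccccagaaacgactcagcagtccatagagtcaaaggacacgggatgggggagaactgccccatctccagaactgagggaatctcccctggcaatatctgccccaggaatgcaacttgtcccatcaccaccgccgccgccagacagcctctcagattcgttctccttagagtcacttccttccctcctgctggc

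The Mobp window held 6 copies of the SOX core, all as its reverse complement, in 215 bases. The Mag window held 1 copy of the SOX core and 1 of the MYRF sequence in 240 bases, and the Mog window held 1 of the MYRF sequence in 250 bases. Cnp held 1 of each in 215 bases, whereas the windows of Mal, Cldn11 and Ugt8a held neither. Over all 32851 RefSeq windows of 250 upstream bases, 16.5% held the SOX core, 5.93% the MYRF sequence and 13.0% the E-box. These are matches of letters in a short window, and no binding was measured.

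The 4 matrices held 16415, 16301, 9905 and 11369 called nuclei and 89436507 to 112226479 UMIs (unique molecular identifiers, 1 per captured transcript). The filters kept nuclei of 500 to 50000 UMIs with over 200 genes and less than 5% of UMIs from mitochondrial genes, which left 52132 with a median of 4636 to 7454 UMIs per library. WT2 stood apart in several measures: it lost 1054 nuclei to the filters where the others lost 187 to 316, the 9 genes together made up 1635 CPM (counts scaled to 1000000 UMIs) in its removed nuclei and 428 to 677 CPM in those of the others, and in the reclustering of glia 1165 of its 1196 oligodendrocytes formed a cluster of 1187 nuclei nearly by themselves while the oligodendrocytes of the other 3 libraries shared 2 further clusters. Results between genotypes are therefore also given without WT2. Any 2 libraries shared 33 to 68 cell barcodes, and their counts differed far beyond sampling noise (chi-square per degree of freedom 34.7 to 108). Csf1r itself, the targeted gene, was at 851, 688, 559.6 and 569 CPM in the microglia of WT1, WT2, HET1 and HET2, with both HET libraries below both WT libraries. Over all kept nuclei it was not lower in HET, at 3.04, 6.53, 6.68 and 6.36 CPM in the same order. There 1.38%, 2.48%, 5.09% and 4.49% of nuclei had a Csf1r UMI.

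Classes were named from marker genes that exclude all 9 myelin genes. Oligodendrocyte-like nuclei, hereafter oligodendrocytes, numbered 340, 1196, 435 and 307 in WT1, WT2, HET1 and HET2, and 10 of 13 markers, among them Aspa, were detected in at least 10% of them. Precursor-like nuclei, hereafter precursors, numbered 19, 109, 17 and 11, and carried all 11 precursor markers at that detection. Microglia-like (716 nuclei), endothelial-like (453), mural-like (140) and fibroblast-like (53) nuclei and excitatory-like (17258) and inhibitory-like (14459) neurons are called by those names below without the suffix. The mural class also carried endothelial transcripts, with all 10 endothelial markers detected. The astrocyte-like class held 49 nuclei and is left out of what follows. A cluster of 985 nuclei, 85.1% of them with high doublet scores, carried oligodendrocyte markers and neuronal depth (median 6984 UMIs) and was left unnamed.

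In oligodendrocytes all 9 genes were counted in every library. Mbp, which lies on chromosome 18 and encodes myelin basic protein, was at 2987, 3999, 4458 and 4451 CPM in WT1, WT2, HET1 and HET2, from 1909 to 9002 UMIs per library. WT1 was the lowest library and both HET libraries lay above both WT libraries. Of all genes tested in oligodendrocytes, 17.9% did the latter after scaling between libraries. Mobp was at 773, 1151, 1360.2 and 941 CPM, so that its genotypes overlapped.

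The outer-layer protein gene Mog was at 832, 834, 957 and 914 CPM. Mag, of the axon-facing layer, was at 831, 838, 884 and 906 CPM. For both genes the 2 WT libraries lay close to each other and below both HET libraries. The tight-junction gene Cldn11 was at 264, 359, 439 and 329 CPM, with WT1 lowest, HET1 highest and the groups overlapping. The proteolipid gene Mal was at 261, 343, 457 and 348 CPM, and here HET2 lay just above WT2.

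Among the enzymes, galactosyltransferase Ugt8a was at 972, 889.9, 985 and 1059.8 CPM, with a narrow spread and both HET libraries above both WT libraries. The hydroxylase Fa2h was at 451, 494, 602 and 527 CPM, again without overlap. Cnp was the least counted gene of the group, at 108, 102, 142 and 88.3 CPM from 494 UMIs in all, and HET2 was its lowest and HET1 its highest library. As counts at transcript ends are not scaled by length, levels of different genes were not compared.

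**Figure D1:**
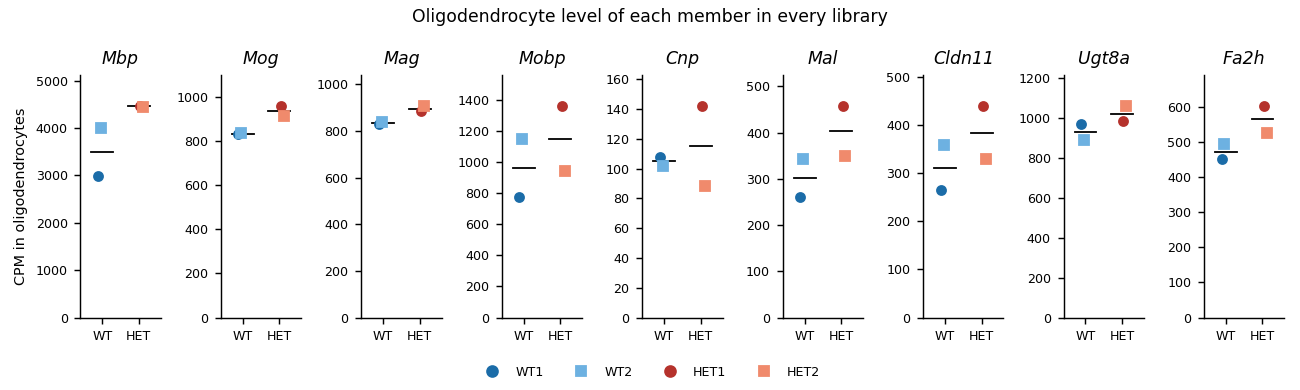
Level of each gene in oligodendrocytes, in CPM of the class (y axis from 0, a scale per gene), for the 2 WT and the 2 HET libraries; points are libraries and bars are group means. Both HET points lie above both WT points for Mbp, Mog, Mag, Mal, Ugt8a and Fa2h, and the groups overlap for Mobp, Cnp and Cldn11. CPM here is before scaling between libraries. After scaling Mal overlaps too, and 17.9% of all genes lie higher in both HET libraries.

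Most oligodendrocytes carried several of the transcripts at once. With a median of 1768.5 UMIs per nucleus, 97.7% of oligodendrocytes had a UMI of Mbp, 75.2% of Mobp, 74.6% of Mag, 72.8% of Ugt8a and 72.7% of Mog. The share was 57.3% for Fa2h, 45.2% for Cldn11, 43.8% for Mal and 19.0% for Cnp. After each nucleus was thinned to 1000 UMIs, which left 2076 oligodendrocytes, the shares were 96.7% for Mbp, 55.1% to 61.0% for Mobp, Mag, Ugt8a and Mog, 29.2% to 38.5% for Fa2h, Cldn11 and Mal, and 10.9% for Cnp. At that depth a nucleus held on average 4.08, 4.30, 4.68 and 4.32 of the 9 genes in WT1, WT2, HET1 and HET2, and 0 to 0.685% of nuclei held none. As a comparison class that makes no myelin, excitatory neurons had a UMI of Mbp in 30.8% of nuclei at a median of 6895.5 UMIs and 5.59% after thinning, and each of the other 8 genes was found in at most 4.31% before and 0.650% after thinning.

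Oligodendrocytes made up 4.37% of the kept nuclei and held a large but unequal part of the UMIs of each gene. Their part was 57.9% for Mog, 53.4% for Mag, 52.4% for Fa2h, 52.2% for Mobp, 50.4% for Cldn11, 46.3% for Ugt8a, 38.9% for Mal, 38.3% for Mbp and 15.9% for Cnp. Of the Cnp UMIs, 24.8% were in excitatory and 22.5% in inhibitory neurons, and of the Mbp UMIs 17.1% were in excitatory neurons. In the unnamed cluster with high doublet scores each of the 9 genes stood at 19.4% to 25.1% of its own level in oligodendrocytes, with Mobp lowest and Mal highest.

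Within oligodendrocytes the genes did not vary in parallel. Clustering the class alone, with each library centred and the 9 genes left out, gave 3 states. State A (1157 nuclei) was led by Il33, Ptgds and Apoe, state B (886 nuclei) by Enpp6, Klk6 and Piezo2, and state C (235 nuclei) by Kank1, Synpr and Man1a, and all 3 were found in every library. Median depth was 1472, 2109 and 2347 UMIs in A, B and C. The pan-neuronal marker Snap25 was at 214, 145 and 127 CPM in the same order, and 2.33%, 0% and 0% of nuclei had high doublet scores. The part of neuronal transcripts in the differences between states was not tested. The states were made from other genes of the same nuclei, so the differences are a description without a test.

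Mal had the widest range. Its level was 363, 382, 527 and 489 CPM in state A of WT1, WT2, HET1 and HET2, 132, 206, 251 and 164 CPM in state B, and 554, 671, 854 and 606 CPM in state C. The order B, A, C thus held in each of the 4 libraries, and pooled levels were 55.3%, 118% and 195% of the level in all oligodendrocytes. Cldn11 also was lowest in B and highest in C in each library, at 78.7%, 108% and 149% pooled. Opalin, an oligodendrocyte surface glycoprotein gene outside the group, followed the same order with 49.3, 266 and 531 CPM in B, A and C.

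Mbp, Mobp and Mog were lowest in A and highest in C in each of the 4 libraries. Pooled values in A, B and C were 85.0%, 103% and 134% of the oligodendrocyte level for Mbp, 79.1%, 103% and 153% for Mobp, and 84.4%, 106% and 127% for Mog. Ugt8a was highest in B in every library, at 89.3%, 109% and 99.8%. Mag, at 97.8%, 97.4% and 115%, and Fa2h, at 92.5%, 103% and 112%, varied least. Cnp was highest in C in WT1, WT2 and HET1 and lowest in C in HET2, where it was at 52.2 CPM in 34 nuclei.

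**Figure D2:**
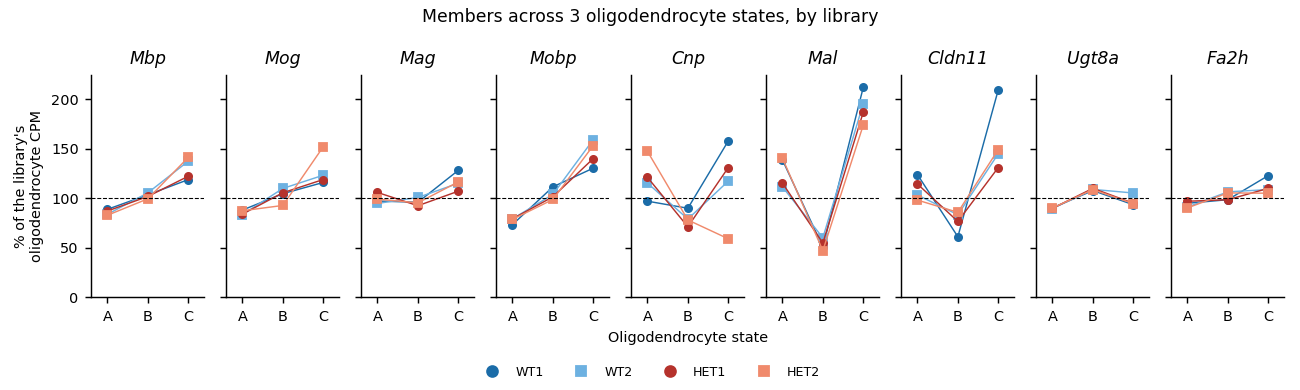
Level of each gene in oligodendrocyte states A, B and C (x axis) as a percentage of the same library's level in all oligodendrocytes (y axis), 1 line per library; the dashed line is 100%. Mal dips in B and peaks in C in all 4 libraries, Mbp, Mog and Mobp are lowest in A and highest in C, and Mag, Ugt8a and Fa2h stay near the dashed line.

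The precursors held nuclei of different stages. Reclustering the 156 precursors, without the 9 genes, gave a group of 96 nuclei led by Pdgfra, Cspg4 and Neu4, a group of 30 led by Bcas1, Enpp6 and Gpr17 that carried all 10 markers of newly formed oligodendrocytes, and a group of 30 that was left unnamed because 73.3% of it had high doublet scores. Pdgfra was at 788 CPM in the first group and 142 CPM in the second, in which Enpp6 was at 637 and Bcas1 at 2772 CPM. Libraries contributed 12, 67, 10 and 7 nuclei to the Pdgfra-led group and 2, 22, 3 and 3 to the Enpp6-led group, so values are pooled and rest mostly on WT2. Intervals below are exact 95% Poisson intervals. The limit given for a count of 0 is the level of 3 counts. Intervals and limits here cover counting error only.

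Mog was at 0 UMIs in the Pdgfra-led group, which allows up to 12.6 CPM (3 counts), and at 364 CPM in the Enpp6-led group (36 UMIs, interval 255 to 504). Mag was at 12.6 CPM (3 UMIs, 2.61 to 37.0) and 476 CPM (349 to 632). Mobp was at 16.9 CPM (4 UMIs, 4.59 to 43.2) and 384 CPM (272 to 528). The intervals of the groups were far apart for each of these 3 structural genes. They treat UMIs as independent, although single nuclei held many of them. In WT2, 1 nucleus held 14 of the 30 Mog UMIs of precursors, 1 held 11 of 42 for Mag and 1 held 13 of 37 for Mobp. Mbp was at 97.0 CPM (61.5 to 145) and 3511 CPM (3151 to 3900.2), the latter 87.3% of its level in oligodendrocytes. Cldn11 was at 8.43 CPM (2 UMIs, 1.02 to 30.5) and 212 CPM (132 to 325).

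The lipid enzymes were counted already in the Pdgfra-led group. Ugt8a was at 156 CPM (109.8 to 215) and 415 CPM (298 to 563) in the Pdgfra-led and Enpp6-led groups, and Fa2h at 109.6 CPM (71.6 to 161) and 314 CPM (213 to 445). As shares of their own oligodendrocyte level, the Pdgfra-led group had 16.5% of Ugt8a, 21.2% of Fa2h and 23.1% of Cnp, against 0 to 2.41% of the 6 membrane and adhesion genes. Cnp rested on 6 UMIs in each group, at 25.3 CPM (9.28 to 55.1) and 60.7 CPM (22.3 to 132), and its intervals overlapped. Mal stayed low in both, at 8.43 CPM (2 UMIs, 1.02 to 30.5) and 50.6 CPM (5 UMIs, 16.4 to 118), with intervals that overlapped too, and its 14.2% of the oligodendrocyte level was the lowest share of the 9 genes in the Enpp6-led group, where the others stood at 34.5% to 87.3%.

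**Figure D3:**
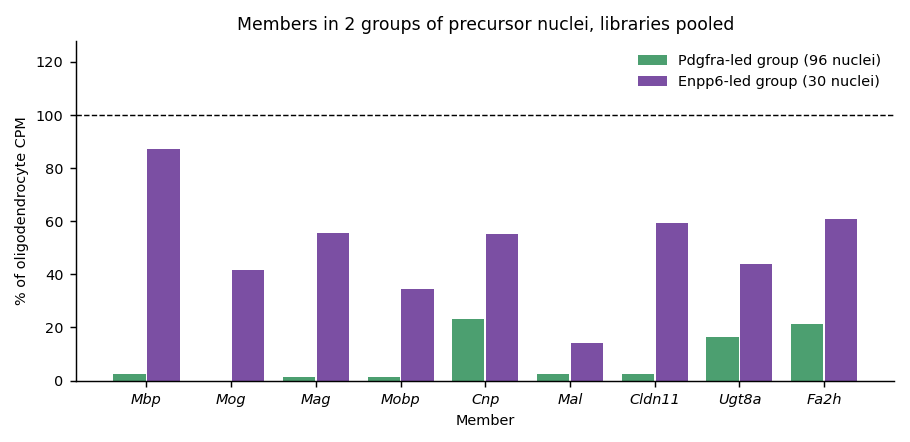
Level of each gene in 2 groups of precursor nuclei, libraries pooled, as a percentage of its level in oligodendrocytes (y axis from 0; dashed line, 100%). In the Pdgfra-led group the enzymes Cnp, Ugt8a and Fa2h stand at 16.5% to 23.1% and Mog has no bar because it is at 0. The Cnp bar rests on 6 UMIs in each group, and counting error is not drawn. In the Enpp6-led group the bars reach from 14.2% for Mal to 87.3% for Mbp.

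Of the 9 genes, Mal was the one about as high in vascular nuclei as in oligodendrocytes. In endothelial nuclei it was at 289.9, 496, 491 and 708 CPM in WT1, WT2, HET1 and HET2, which was 125% of its oligodendrocyte level when pooled. The level was 107% to 203% of that of the same library's oligodendrocytes. In mural nuclei Mal was at 286, 359, 354 and 289.6 CPM, 87.9% of the oligodendrocyte level. A Mal UMI was found in 38.6% of endothelial nuclei (30.9% after thinning) and 50.0% of mural nuclei (19.0%), against 1.55% of excitatory neurons (0.255%), at median depths of 1302, 3045 and 6895.5 UMIs.

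The other 8 genes were low in the same nuclei. They stood at 1.59% to 7.48% of their oligodendrocyte level in endothelial nuclei, and at 0 to 12.4% in mural nuclei, where Mog, Cldn11 and Fa2h had 0 UMIs of 442683, which allows up to 6.78 CPM (3 counts). In endothelial nuclei WT2 was the highest library for each of them but Cnp, with Mbp at 333 CPM against 12.7 to 107 CPM in the other 3 libraries. Of all UMIs of the 9 genes in mural nuclei, 86.3% were of Mal, compared with 3.90% in oligodendrocytes. In microglia, Mal was at 17.3, 153, 25.0 and 72.4 CPM.

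**Figure D4:**
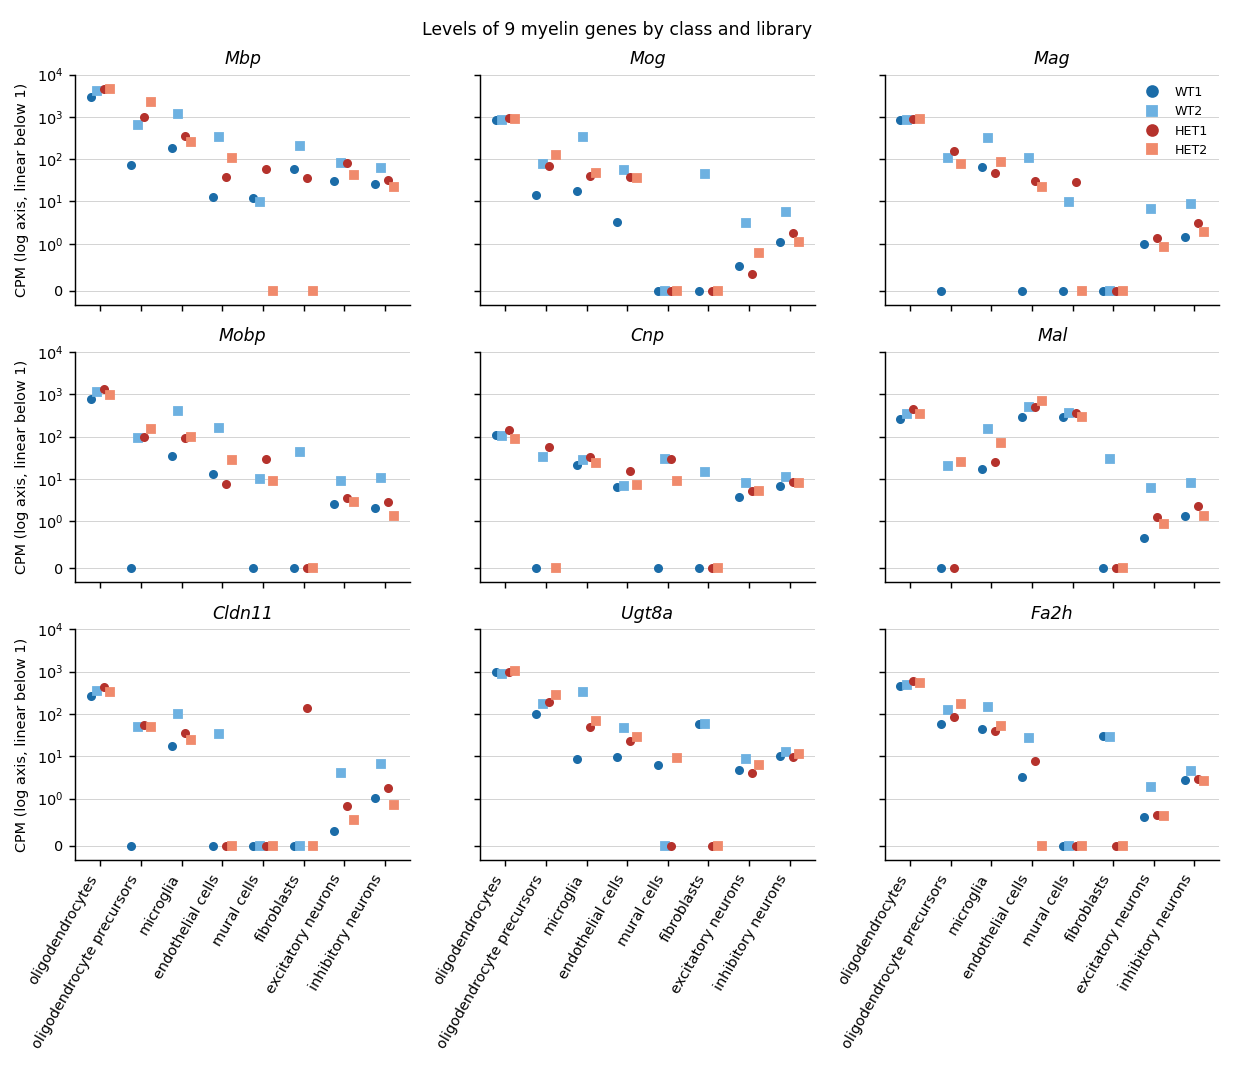
Level of each gene in CPM (y axis, log scale above 1 and linear below) in 8 classes (x axis), 1 point per library. Oligodendrocytes are highest for 8 of the genes, endothelial and mural nuclei match them for Mal, and WT2 (light blue squares) is the highest library in microglia for 8 genes and in both neuron classes for all 9.

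Outside these classes the genes were low except in the microglia of WT2, and WT2 was mostly the highest library. In microglia Mbp was at 186, 1173, 346 and 251 CPM and Mog at 17.3, 326, 39.2 and 48.2 CPM. Microglia of WT2 held the 9 genes at 27.7% to 44.6% of their oligodendrocyte level, whereas in the other libraries the median gene stood at 6.51% to 9.59%. The summed level of the 13 oligodendrocyte markers in microglia, from which the 9 genes were left out, was also highest in WT2, at 756, 3895, 1005 and 646 CPM. The 9 genes together were at 410, 2969, 706 and 724 CPM, so the other libraries did not keep the same order. The part of the markers in these values was not tested.

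In excitatory neurons Mbp was at 30.9, 82.5, 80.4 and 41.4 CPM, so that HET1 was close to WT2. None of the other 8 genes showed that pattern: Mog was at 0.529, 3.08, 0.352 and 0.794 CPM and Mag at 1.01, 6.56, 1.35 and 0.922 CPM, with WT2 far above the rest. In inhibitory neurons Mbp was at 25.2, 61.3, 33.0 and 21.7 CPM. Cnp varied less between libraries, at 3.65 to 8.05 CPM in the excitatory and 6.63 to 11.2 CPM in the inhibitory class. Its pooled level was 4.88% and 7.82% of that in oligodendrocytes, the largest such share of the 9 genes in both neuron classes.

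Over 35 clusters of all kept nuclei, the genes followed one another closely, Mal least. Pearson's r between the log2 level of a gene and the mean of the other 8 was 0.978 for Cldn11, 0.977 for Mag, 0.974 for Mog, 0.963 for Mobp, 0.934 for Cnp, 0.920 for Fa2h, 0.880 for both Mbp and Ugt8a and 0.845 for Mal. Among the other genes of 18060 with the most similar pattern were Ermn (0.981), 1700047M11Rik (0.979), Ninj2 (0.976), Gm13905 (0.975), Aspa (0.975), Olfml1 (0.974), Cldn14 (0.973), Opalin (0.973) and Cdh19 (0.971). The clusters share libraries and differ in depth, and few of them hold oligodendrocytes, so these correlations are a description.

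In oligodendrocytes none of the 9 genes differed between Csf1r+/- and WT at the threshold used by the study, an unadjusted p of 0.01. All 9 had a higher estimate in HET, with log2 fold changes of 0.09 to 0.40. Counts were summed per library and tested with the edgeR quasi-likelihood test over 3270 genes, of which 204 (6.24%) passed, 2 higher and 202 lower in HET, and 55 (1.68%) at an adjusted p of 0.05. The median was 0.25 for the 9 genes and 0.02 for all genes tested. At an unadjusted p of 0.05, 0 of the 9 passed, against 11.1% of all genes, and DESeq2 also called 0 at 0.01. With 2 libraries a group, an exact permutation test of a single value cannot go below p = 0.333.

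Mal had the largest estimate, with a log2 fold change of 0.40 ± 0.20 (SE; edgeR adjusted p = 0.567). Mbp followed with 0.34 ± 0.17 (edgeR adjusted p = 0.600), from 3493 ± 716 CPM in WT to 4455 ± 4.81 CPM in HET (SD, n = 2 each). Cldn11 had 0.28 ± 0.21, and Mobp and Fa2h each had 0.25, with errors of 0.23 and 0.17. The smallest were those of Cnp (0.17 ± 0.24), Mog (0.16 ± 0.16), Ugt8a (0.12 ± 0.16) and Mag (0.09 ± 0.16). After scaling, both HET libraries lay above both WT libraries for 5 of 9 genes, Mbp, Mog, Mag, Ugt8a and Fa2h, which 17.9% of all genes did. Mal no longer did so after scaling.

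The estimates depended on single libraries. Without WT2, which held 1196 of the 2278 nuclei, Mbp (0.56, edgeR adjusted p = 0.0207), Mal (0.62, adjusted p = 0.125) and Mobp (0.56, adjusted p = 0.127) passed the unadjusted threshold, as did 197 of 3270 genes (6.02%). In that fit the lone WT library was assumed to vary like the 2 HET libraries. Without HET1, 0 of the 9 passed, the median was 0.09, and Mobp and Cnp were at -0.08 and -0.29. Pan-neuronal markers in the oligodendrocyte class were lower in both HET libraries, at 2846, 2909, 1282 and 1773 CPM summed over 7 genes, while the summed oligodendrocyte markers were at 12844, 12149, 14408 and 13750.2 CPM, and their part in the fold changes was not tested. Scaling on 1059 genes enriched in oligodendrocytes, chosen after seeing the data, put the median of all genes at -0.11 and that of the 9 genes at 0.12, with Mag and Ugt8a below 0.

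**Figure D5:**
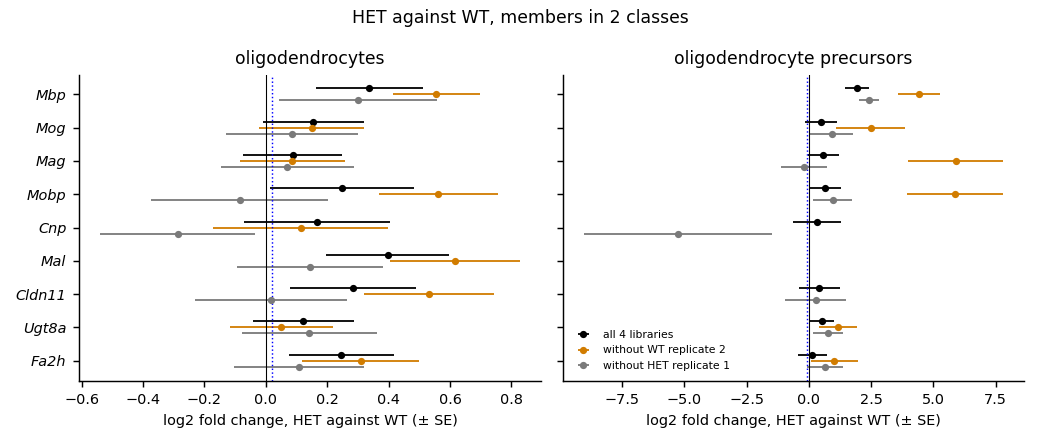
Log2 fold change of each gene, HET against WT, with its SE, in oligodendrocytes (left) and precursors (right) from all 4 libraries, without WT2 and without HET1; the solid line is 0 and the dotted line the median of all genes tested with 4 libraries. In oligodendrocytes the 4-library estimates lie between 0.09 and 0.40, and in precursors leaving out WT2 moves Mbp from 1.93 to 4.43.

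Genes that act beside the 9 in myelin gave no call in oligodendrocytes either. Of 21 other myelin protein genes 17 were tested and 0 passed, 16 had higher estimates in HET, and their median was 0.18. The smallest p-values were those of the tetraspanins Cd82 (0.70, edgeR adjusted p = 0.360) and Cd9 (0.53, adjusted p = 0.416) and of Opalin (0.33, adjusted p = 0.560). Of 20 lipid enzymes 10 were tested and 0 passed, with a median of 0.14. The ceramide synthase Cers2, which makes the very-long-chain ceramides that Ugt8a uses, had -0.65 (adjusted p = 0.233), the sulfotransferase Gal3st1, which turns galactosylceramide into sulfatide, had 0.41 (adjusted p = 0.402), and the aspartoacylase Aspa had 0.25 (adjusted p = 0.811). Of 12 oligodendrocyte transcription factors 8 were tested and 0 passed, with a median of 0.13 and the smallest p-values for Zfp536 (0.31, adjusted p = 0.630), St18 (0.27, adjusted p = 0.759) and Sox8 (0.26, adjusted p = 0.929).

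In precursors, Mbp was higher in Csf1r+/- at the unadjusted threshold, and this rested on few nuclei. It was at 72.5, 626, 1006 and 2249 CPM in WT1, WT2, HET1 and HET2, from 5, 248, 72 and 90 UMIs in 19, 109, 17 and 11 nuclei. Both HET libraries lay above both WT libraries, with a log2 fold change of 1.93 ± 0.49 (edgeR adjusted p = 0.169). Of the Mbp UMIs, 1, 204, 63 and 79 were in the Enpp6-led group, which made up 10.5%, 20.2%, 17.6% and 27.3% of the precursors of each library, and a single nucleus held 60%, 21.4%, 54.2% and 44.4% of a library's Mbp UMIs. The summed markers of newly formed oligodendrocytes were at 1102, 2563, 4361 and 3823 CPM. Within the Enpp6-led group Mbp was at 281, 2789, 5074 and 8123 CPM, in 2, 22, 3 and 3 nuclei.

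Over all genes tested in precursors 69 of 6139 (1.12%) passed, and 2 (0.0326%) at an adjusted p of 0.05. Of the 8 myelin genes tested (Mal was too low), Mbp was the one called, and the one under an unadjusted p of 0.05, where 5.11% of all genes were. The others had estimates of 0.14 to 0.67, the largest in Mobp (0.67 ± 0.63) and Mag (0.57 ± 0.62) and the smallest in Fa2h (0.14 ± 0.58). The median of the 8 was 0.51 and that of all genes -0.07, and 3 of 8 (Mbp, Mobp and Ugt8a) lay higher in both HET libraries than in both WT libraries, as did 14.4% of all genes. In the Pdgfra-led group alone, an alternative chosen after seeing the data, Mbp was at 0, 102, 0 and 448 CPM and had 0.65 (edgeR adjusted p = 0.9996). Without high doublet scores the estimate was 1.18 (adjusted p = 0.996), and in nuclei classed by detected markers without clustering it was -1.62 (adjusted p = 0.864). Mbp passed an adjusted p of 0.05 by edgeR with no detection filter (1.95, adjusted p = 0.00802) and with a replicate block (2.39, adjusted p = 6.58e-05). It also did so with no centring of the libraries before clustering (2.49, edgeR adjusted p = 0.000386). The estimate was 2.41 without HET1 and 4.43 without WT2. In those fits the lone library of a genotype was assumed to vary like the libraries of the other.

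Leaving out WT2 called Mbp (4.43), Mag (5.90) and Mobp (5.86) in precursors, each against the 19 nuclei of WT1, where Mag and Mobp were at 0, so that the fitted values of these depend on the prior count. Over all genes 76 of 3327 (2.28%) passed in that fit, in which the lone WT library was assumed to vary like the HET libraries. Leaving out WT1 called none, with Mbp at 1.28 (edgeR adjusted p = 0.998). Of the neighbouring genes, the adhesion protein gene Nfasc (1.44, edgeR adjusted p = 0.649) and the tetraspanin gene Tspan15 (2.27, adjusted p = 0.807) passed the unadjusted threshold, higher in HET, among 12 other myelin protein genes tested, and the transcription factor gene St18 (1.94, adjusted p = 0.181) did so among 9 factors tested. Of 12 lipid enzymes tested 0 passed, with the smallest p-values for Acss2 (1.65, adjusted p = 0.848), Elovl7 (1.34, adjusted p = 0.868) and Fads2 (-2.03, adjusted p = 0.966).

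In neurons Mbp was the one gene of the 9 detected in enough nuclei to be tested, and it did not pass. Its log2 fold change was 0.15 ± 0.49 in excitatory neurons (edgeR), where 23 of 7640 genes (0.301%) passed, and -0.65 ± 0.42 in inhibitory neurons by the same test, where 4 of 7040 (0.0568%) passed. No gene passed an adjusted p of 0.05 in either class by the edgeR quasi-likelihood test, where 144 (1.88%) and 84 (1.19%) genes but not Mbp were under an unadjusted p of 0.05, while the edgeR likelihood-ratio test called 4 and 0 genes and DESeq2 10 and 0 genes at an adjusted p of 0.05. Mbp overlapped between the groups in both classes, while 9.91% and 10.7% of all genes lay higher in both HET libraries. The estimate in excitatory neurons moved from -0.40 without HET1 to 0.97 without WT2, and that in inhibitory neurons from -1.14 without WT1 (adjusted p = 0.196), where it passed the unadjusted threshold with 2.34% of all genes, to 0.12 without WT2.

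Of the neighbouring genes in neurons, Zfp536, a zinc-finger factor gene that neurons express too, was lower in HET excitatory neurons at the unadjusted threshold (-0.93 ± 0.20, edgeR adjusted p = 0.9999). Of the further myelin protein, lipid enzyme and transcription factor genes tested there, 0 passed. The smallest p-values among the enzymes were those of Elovl6 (0.22), Hmgcs1 (-0.27) and Scd2 (-0.61) in excitatory neurons, and of Elovl6 (0.16), Kdsr (-0.18) and Acss2 (0.19) in inhibitory neurons.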

How the data were processed

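The snRNA-Seq libraries were made from brain nuclei with the Chromium 3′ v3.1 kit, sequenced on an Illumina HiSeq and, per the file headers and the submitters' processing notes, counted with Cell Ranger 5.0.0 on mm10. The deposited values are raw counts of UMIs, not normalized, for each gene in each nucleus that Cell Ranger called. Whether intronic reads were counted is not given in the sources used here. Tags at the 3′ end do not tell isoforms apart. The authors' own clusters were not used here, and 0 columns belonged to other samples.

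Nuclei were filtered as in the study and clustered with scanpy 1.11.5 and leidenalg 0.10.2 (Python 3.11.15, numpy 2.4.6, scipy 1.17.1, scikit-learn 1.9.0) on 3000 variable genes centred per library, 30 principal components, 20 neighbours and resolution 1, with the 9 genes among 183 left out by name. Glial and vascular clusters were clustered again on 2000 genes, and precursors on 1000 genes. Glial, vascular and inhibitory classes needed at least 3 markers. Clusters named excitatory reached 0 to 2 of the excitatory markers, and the naming of some neuron clusters was set after the clusters were seen. The 2 neuron classes leave out 8725 nuclei of other neurons called excitatory by markers, 1155 called inhibitory by markers and 2488 further neurons. Rebuilt classes differ from the study's. Scrublet scores marked likely doublets. Clusters with over 50% of these were left unnamed, and the remaining marked nuclei were kept. Levels are CPM of all UMIs of a class. Shares of nuclei were also computed at 1000 UMIs per nucleus.

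Sums of counts over the nuclei of a class in each library were tested, two-sided, with edgeR 4.0.16 (R 4.3.3, TMM scaling, quasi-likelihood test) for genes that 10% or more of the WT or of the HET nuclei carried and that had 10 counts in all, with Benjamini-Hochberg adjustment over all genes tested. The study used edgeR's likelihood-ratio test, which was run as an alternative, with DESeq2 1.42.0, other scalings and filters, doublet removal, other class definitions, a replicate block and each library left out. The SE of a log2 fold change was its absolute value divided by the square root of the F statistic of the quasi-likelihood test. The fit was tested on simulated data. Promoter windows are RefSeq's, cut to bases outside the annotated gene body. All 9 genes are named throughout. Of the 3 lists, genes past the threshold are named, and otherwise those with the 3 smallest p-values. The 9 genes and the lists were chosen with earlier results of these data known. One of the genes that these rules name is not reported here.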

Additional observations from a re-analysis of the deposited data

Results flagged for a closer look

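In 3 classes every HET library moved one way from every WT library for Mbp, and the direction was not the same in all 3. The difference between classes was not tested. Mbp was higher in HET oligodendrocytes, by 0.35 on the log2 scale of group mean CPM (4455 against 3493 CPM), and in HET precursors, by 2.22 (1628 against 349 CPM). It was lower in HET fibroblasts, at -2.89 (17.8 against 131 CPM), from 17 UMIs in 53 nuclei. These were 17, 20, 9 and 7 nuclei in WT1, WT2, HET1 and HET2, with WT2 highest at 203 CPM and HET2 at 0. Mbp there was at 1.99%, 5.09%, 0.797% and 0% of the same library's oligodendrocyte level. All 9 genes together had 5, 29, 5 and 0 UMIs in these fibroblasts, so few UMIs set WT1 and HET1 apart. After scaling, 17.9% of all genes in oligodendrocytes and 14.4% in precursors also lay higher in both HET libraries. No such share was computed for fibroblasts. With 2 libraries a group, an exact permutation test gives no p below 0.333 for such a separation. Groups of 2 libraries are too small for a search for outlying samples.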

How the results depend on the processing

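In oligodendrocytes 0 of the 9 genes passed, and the median kept its sign under each alternative run. Leaving out 1 library at a time gave 0 to 3 genes and medians of 0.09 to 0.36, the 3 genes without WT2 being Mbp, Mobp and Mal. In precursors the 1 gene called, Mbp, was not called with DESeq2 (0 genes; Mbp 2.17), with high doublet scores removed (0; 1.18), in the Pdgfra-led group alone (0; 0.65) or with classes from detected markers, where it turned to -1.62 (0 genes). It was called under the other alternatives with 4 libraries, and passed an adjusted p of 0.05 with no detection filter, no centring or the replicate block. Leaving out libraries gave 0 to 3 genes and medians of 0.19 to 3.46. In excitatory neurons no detection filter let all 9 genes in, with a median of -0.86, and leaving out libraries gave 0 genes and -0.40 to 0.97. In inhibitory neurons all 9 genes also came in with no detection filter, with a median of -1.02 and 0 past the threshold. Leaving out libraries there gave 0 to 1 genes and -1.14 to 0.12. The causes were not tested.

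Thinning to 1000 UMIs lowered the share of nuclei with any of the 9 genes to 46.4% in precursors, 21.4% in mural nuclei, 7.98% in excitatory and 7.41% in inhibitory neurons. Of the single-gene values under alternatives, 255 kept direction and side of the threshold, 23 of the values that did not pass changed sign, 6 newly passed, 4 no longer passed with the same sign and 1 called value reversed. WT1 held 19 and HET2 11 precursors, which limits all values there.

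Pairing by replicate number was checked with the deviations of WT1 and HET1 from the means of their genotypes, over the 2000 genes of highest level. These deviations correlated at -0.01 in oligodendrocytes, 0.06 in precursors, -0.28 in excitatory and -0.18 in inhibitory neurons. They are not correlations between the levels of whole libraries. With the replicate block 260, 77, 48 and 23 genes passed in these classes, in place of 204, 69, 23 and 4, and of the 9 genes 0, 1, 0 and 0, with medians of 0.24, 0.89, 0.22 and -0.55. A crossed pairing, added after seeing the data, gave 58 and 16 genes in the 2 neuron classes.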
